A study of Mus musculus with 35 samples.

Results

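The comparison asked whether M-MDSC from the spleen and M-MDSC from the pancreatic tumor of the same kind of mouse answered poly(I:C)c with the same genes. It used 15 of the 16 M-MDSC libraries, out of 35 libraries in the series, and tested the interaction of treatment and organ: the treatment change in tumor M-MDSC minus the treatment change in spleen M-MDSC. M-MDSC are CD11b+ Ly6C hi Ly6G- cells, enriched on CD11b and then sorted by flow cytometry. All mice were C57BL/6 carrying orthotopic T110299 tumors, a line derived from a Ptf1a-Cre-driven, p53-mutant mouse pancreatic carcinoma, so every group came from tumor-bearing animals. Treated mice received 50 µg of poly(I:C) complexed with the carrier polyethylenimine into a vein on day 18 and day 20, and the labels call the other mice untreated, with glucose named as the control in the treatment protocol. The groups held 4 untreated spleen, 4 treated spleen, 4 untreated tumor and 3 treated tumor libraries. The fourth treated tumor library held 10 counts in all and was left out. Libraries are named below by the running number in their column name, which does not name the mouse they came from.

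M-MDSC are immature monocytic cells that expand in tumor-bearing hosts and restrain T cells, with the spleen as a reservoir and the tumor as a site of recruitment. Poly(I:C) imitates viral double-stranded RNA. Delivered into the cytosol it is sensed by MDA5, the product of Ifih1, which drives type I interferon and NF-kB signaling. Interferon acts through receptor-bound JAK kinases and STAT factors on antiviral genes, whereas NF-kB drives chemokines, cytokines and its own inhibitors such as Nfkbia.

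The libraries held 793070 to 4357105 counts, with a median of 2416347, and a gene was tested if it averaged at least 25 counts, which left 8730 genes. Values per library are CPM, that is counts scaled to a common library total after TMM correction for composition. Treated tumor library 28 and treated spleen library 30 stood apart. In library 28 the sorting antigen gene Ly6c2 was at 3.13 CPM against 657 and 462 CPM in the other treated tumor libraries, Chil3 at 8.65 against 901 and 655 CPM, and the macrophage gene Adgre1 at 969 against 282 and 413 CPM, so its RNA went against the Ly6C hi label. Library 30 carried a summed plasma cell marker level of 8104 CPM (4 of 4 markers found), against 68.4 to 225 CPM in the other treated spleen libraries, together with B cell markers at 132 CPM. Untreated tumor library 24 held the fewest counts, 793070. Its rank correlations with the rest of its group were 0.889 to 0.908, against 0.9545 to 0.9602 among the others. The sorting antigen gene Itgam was at 911 CPM in library 24, against 331 to 486 CPM in the others. The summed level of 10 neutrophil markers was 3963 to 9852 CPM in untreated spleen, 1039 to 6199 CPM in treated spleen and at most 1204 CPM in tumor libraries. The summed level of 6 tumor epithelium markers, Cdh1 among them, was 116 to 365 CPM in untreated tumor, 78.5 to 112 CPM in treated tumor, where Epcam was at 0, and at most 18.4 CPM in spleen. The part of these differences in the results was not tested. In sorted bulk RNA, fewer cells of a kind and less RNA per cell cannot be told apart.

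The response differed between the organs for 69 genes (0.79% of those tested) at an adjusted p under 0.05. The response was more positive in spleen for 49 genes (0.561%) and more positive in tumor for 20 genes (0.229%). Among the 49 were chemokines (Cxcl10, Ccl3, Ccl4), the NF-kB inhibitor gene Nfkbia, endosomal genes (Rab20, Ehd1) and the cyclin gene Ccnd2. Among the 20 were Txnip, Tsc22d3, Timp2, Apoe and Cebpa. Without library 28 the count was 47, of which 42 were among the 69, and without library 30 it was 80, of which 55 were among the 69. The count depended on single libraries. It was 30, 24, 8 and 11 without untreated spleen libraries 2, 6, 18 and 22, and 27, 37 and 7 without treated spleen libraries 10, 14 and 26. It was 9, 25, 19 and 27 without untreated tumor libraries 4, 8, 20 and 24, and 250 and 104 without treated tumor libraries 16 and 32. The 7 genes called in all 15 of these fits were Rab20, Tgm2, Ehd1, Ccnd2, Ccrl2, Ralgds and Tiparp, and all were more positive in spleen. At an unadjusted p under 0.05 there were 1238 of the 8730 genes, and DESeq2 called 307 and limma-voom 116. The counts by gene list below stand against these.

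**Figure D1:**
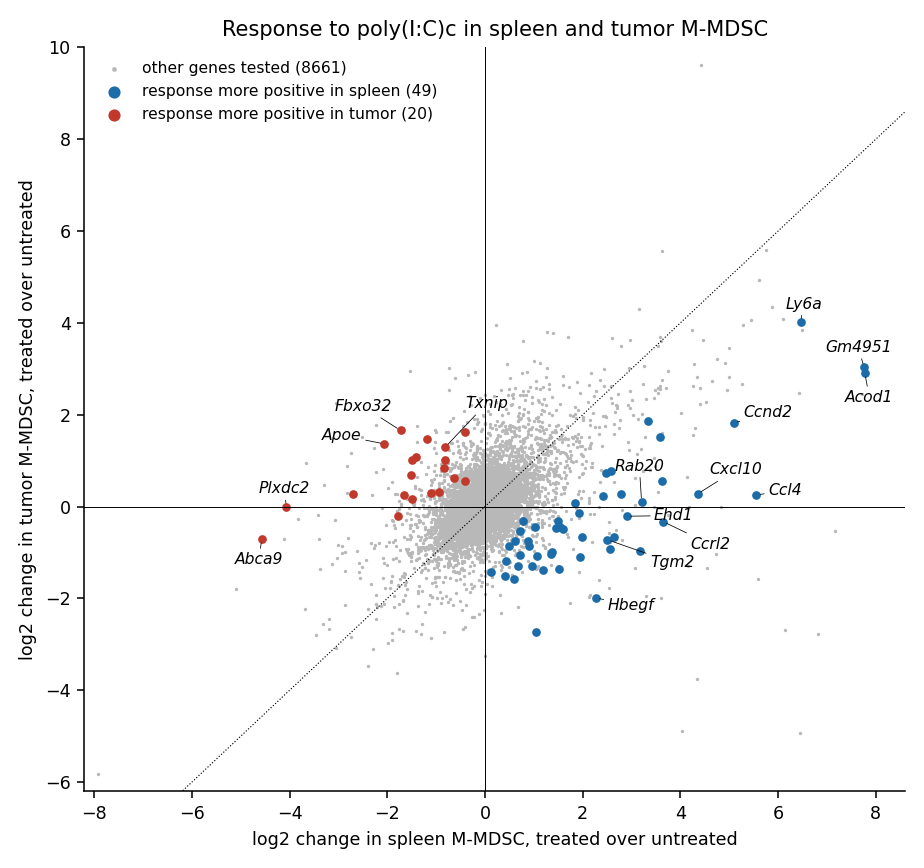
Fitted log2 change with treatment in spleen M-MDSC (x axis) against the change in tumor M-MDSC (y axis), one point per tested gene, with the dotted line marking equal change. The 49 genes with the more positive response in spleen lie below the line and the 20 with the more positive response in tumor above it, as the test that chose them fixes.

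For 3 of the 49 genes the promoter letters are shown (RefSeq, GRCm38.p6, 250 bases before to 50 after the gene start, 5′ to 3′ on the gene's strand), because these chemokine system and feedback genes rose in spleen M-MDSC and hold a match to the NF-kB consensus. They were picked after their values and motifs were seen. The promoters at hand of other genes among the 49, such as Ccl3, Rab20, Acod1 and Trem1, held no NF-kB match. Capitals mark the matches. In Cxcl10 these are, in order, an interferon-stimulated response element core (GAAA, any 2 bases, then GAAA), an NF-kB match, a pair of overlapping NF-kB matches, and an AP-1 match (TGANTCA); in Ccrl2 and Nfkbia there is 1 NF-kB match each.
Cxcl10, chr5:92348840-92349139, minus strand: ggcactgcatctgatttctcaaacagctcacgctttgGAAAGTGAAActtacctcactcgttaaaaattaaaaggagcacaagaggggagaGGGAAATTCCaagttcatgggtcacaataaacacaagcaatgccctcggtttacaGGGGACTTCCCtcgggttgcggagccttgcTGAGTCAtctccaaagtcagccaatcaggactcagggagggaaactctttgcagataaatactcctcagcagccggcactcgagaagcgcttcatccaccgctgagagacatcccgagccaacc
Ccrl2, chr9:111057469-111057768, minus strand: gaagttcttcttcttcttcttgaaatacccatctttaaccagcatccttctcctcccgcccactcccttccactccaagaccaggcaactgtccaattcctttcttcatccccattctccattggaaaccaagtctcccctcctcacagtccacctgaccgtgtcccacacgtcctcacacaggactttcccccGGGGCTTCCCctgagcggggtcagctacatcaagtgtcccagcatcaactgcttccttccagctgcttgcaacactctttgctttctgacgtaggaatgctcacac
Nfkbia, chr12:55492598-55492897, minus strand: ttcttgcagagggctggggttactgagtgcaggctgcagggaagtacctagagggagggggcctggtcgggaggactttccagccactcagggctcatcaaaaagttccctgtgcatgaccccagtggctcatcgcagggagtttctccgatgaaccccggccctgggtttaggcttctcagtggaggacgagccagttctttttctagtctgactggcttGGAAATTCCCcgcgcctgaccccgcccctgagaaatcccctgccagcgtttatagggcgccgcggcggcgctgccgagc
Both strands were searched. Of the 6581 tested genes with such a promoter, 10.5% held the NF-kB consensus, 3.71% the response element core and 4.85% the AP-1 letters. A promoter was at hand for 32 of the 49 genes, under 80%, so no share is drawn over them, and a match describes letters and not a bound site.

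The gene with the smallest p was Rab20, a small GTPase of endosome and phagosome maturation (chr8:11453518-11478710, GRCm38). Its level was 5.60, 5.01, 2.73 and 4.38 CPM in the untreated spleen libraries and 35.5, 46.1, 47.6 and 33.3 CPM in the treated ones. In tumor it was 73.7, 66.0, 88.7 and 62.0 CPM untreated and 79.7, 72.4 and 84.6 CPM treated. The spleen groups did not overlap, whereas the tumor groups did, and every tumor library was above every spleen library. Rab20 rose 9.17-fold in spleen (log2 3.21, adjusted p = 2.43e-07), its tumor change was 1.09-fold (adjusted p = 0.96), and the responses differed by -3.10 ± 0.29 (log2, SE; adjusted p = 0.000142). It was the 1 gene past an adjusted p of 0.001 with at least a 2-fold difference.

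Ehd1, which drives the return of endocytosed receptors to the surface (chr19:6276725-6300096), had levels in untreated spleen of 62.1, 43.3, 58.5 and 60.9 CPM. Treated spleen libraries held 361, 534, 455 and 335 CPM, a range that held 3 of the 4 untreated tumor libraries (599, 410, 457 and 340 CPM). Treated tumor libraries held 377, 227 and 570 CPM. Ehd1 rose 7.49-fold in spleen and its tumor change was 0.87-fold (adjusted p = 0.69), a difference of -3.11 ± 0.39 (log2, SE; adjusted p = 0.00209). Tgm2, the crosslinking enzyme transglutaminase 2 (chr2:158116402-158146436), was at 40.2 to 44.9 CPM in untreated spleen and 184, 244, 343 and 198 CPM in treated spleen. Tumor levels were 1831, 1307, 1048 and 1259 CPM untreated and 1131, 530 and 819 CPM treated, so its highest level after treatment in spleen was below every tumor library. The responses differed by -3.22 ± 0.37 (log2, SE; adjusted p = 0.00128), with a 5.67-fold rise in spleen and a tumor change of 0.61-fold (adjusted p = 0.102).

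Ccnd2, which encodes cyclin D2 (chr6:127125162-127152193), rose in both organs by unequal amounts. It was at 5.09, 4.10, 10.9 and 7.23 CPM in untreated spleen and 141, 232, 274 and 313 CPM in treated spleen. Untreated tumor libraries held 53.7, 75.6, 65.6 and 57.7 CPM, and treated ones 200, 180 and 292 CPM. The treated groups of the organs overlapped, while the untreated groups did not. The rise was 35.1-fold in spleen and 3.55-fold in tumor (adjusted p = 0.00146), and the difference was -3.27 ± 0.42 (log2, SE; adjusted p = 0.00209). Ralgds, an exchange factor that activates Ral GTPases (chr2:28513125-28553081), was at 4.10 to 9.17 CPM in untreated spleen and 30.2, 56.7, 70.5 and 50.8 CPM in treated spleen. It was at 65.2 to 103 CPM in untreated tumor and 85.9, 97.8 and 106 CPM in treated tumor, a difference in response of -2.51 ± 0.38 (log2, SE; adjusted p = 0.0105).

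**Figure D2:**
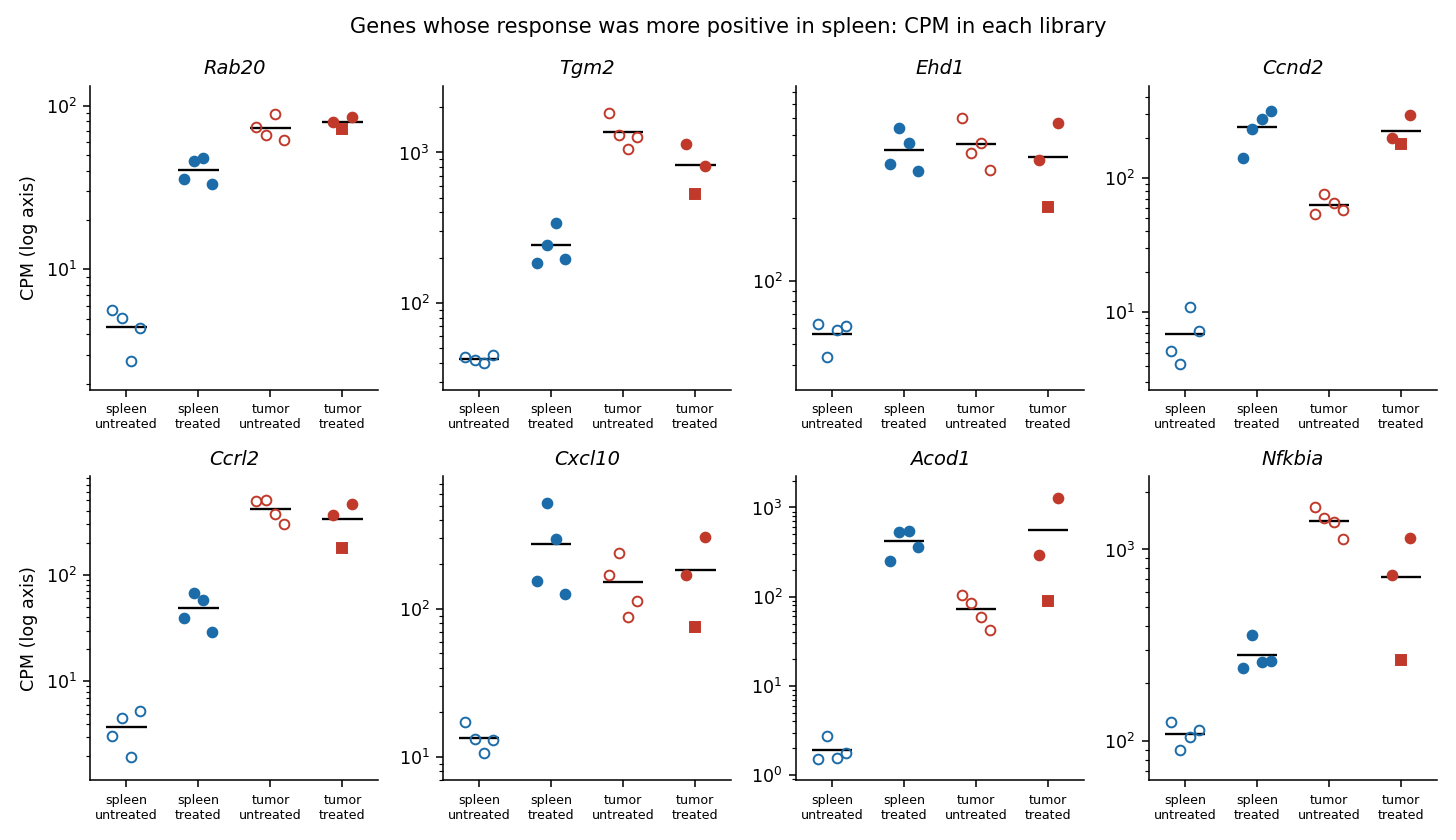
Level in CPM (log axis) of 8 genes with the more positive response in spleen, one point per library, open for untreated and filled for treated, with lines at the group means and squares for treated tumor library 28. For Rab20 the 4 treated spleen libraries, at 33.3 to 47.6 CPM, lie above all untreated spleen libraries and below all tumor libraries.

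Several genes of the chemokine system rose in spleen M-MDSC without a call in tumor M-MDSC, where they were higher before treatment. Ccrl2, a receptor that holds the attractant chemerin without signaling (chr9:111054486-111057519), was at 1.95 to 5.26 CPM in untreated spleen and 39.0, 67.6, 58.0 and 29.3 CPM in treated spleen. Tumor libraries held 486, 506, 372 and 301 CPM untreated and 365, 179 and 456 CPM treated. The spleen rise was 13.1-fold, and the responses differed by -3.97 ± 0.52 (log2, SE; adjusted p = 0.00249). Cxcl10, the interferon-induced ligand of CXCR3 on T cells (chr5:92346638-92348889), was at 10.5 to 17.3 CPM in untreated spleen and 154, 518, 299 and 126 CPM in treated spleen. Tumor levels were 169, 237, 88.7 and 113 CPM untreated and 170, 75.7 and 307 CPM treated, where the groups overlapped. Cxcl10 rose 20.3-fold in spleen, its tumor change was 1.21-fold (adjusted p = 0.787), and the difference was -4.08 ± 0.74 (log2, SE; adjusted p = 0.0302).

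The chemokine genes Ccl4 and Ccl3 were near 0 in untreated spleen M-MDSC. Ccl4 was at 0 to 2.28 CPM there, at 12.6, 59.9, 51.3 and 19.3 CPM in treated spleen, and at 88.0 to 228 CPM in untreated and 170 to 276 CPM in treated tumor. Its response had the widest difference of the 69 genes, -5.30 ± 0.90 (log2, SE; adjusted p = 0.0244). Ccl3 rose 12.4-fold in spleen with a value of 1.49-fold in tumor (adjusted p = 0.36), a difference of -3.06 ± 0.64 (log2, SE; adjusted p = 0.0442), and without library 28 the difference was -2.97 and not called. Of 18 tested chemokine genes edgeR called 3 (0.79% of all genes), Cxcl10, Ccl3 and Ccl4, all more positive in spleen. DESeq2 called 4 of the 18 and limma-voom 1, with 5 at an unadjusted p under 0.05. However, 9 of the 18 had a group in which no library exceeded 3 counts. Ccl2, a monocyte attractant, rose in spleen (log2 2.80, adjusted p = 0.002), with a difference of -2.50 that was not called (adjusted p = 0.086). Of 7 chemokine receptors edgeR called 1 (0.79% of all genes), Ccrl2. DESeq2 and limma-voom called 3 each, with 4 at an unadjusted p under 0.05.

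In the list of NF-kB subunits and feedback inhibitors edgeR called 1 of 15 tested genes, Nfkbia, for a different response, against 0.79% of all genes, and DESeq2 called 3 and limma-voom 1, with 12 at an unadjusted p under 0.05. The interaction was below 0 for all 15 members, against 4581 of 8730 tested genes above 0, with a median of -1.30 against 0.03 for all genes. In spleen 6 of the 15 rose, among them Nfkbia, Nfkbiz, Cflar, Traf1 and Tnip1, whereas in tumor none rose and 2 fell (Nfkb1 and Rel). Of all tested genes 8.63% rose in spleen, and 5.58% rose and 3.83% fell in tumor. The list's median change was 0.93 in spleen and -0.60 in tumor. Without library 28 the tumor median was -0.25, none of the 15 fell and 1, Tnip1, rose in tumor. Without library 30, 3 fell and 1 rose in tumor, and 2 were called for the interaction (Nfkbia and Tnfaip2). Nfkbia, which encodes the inhibitor IkB-alpha (chr12:55489410-55492647), was at 90.2 to 126 CPM in untreated and 240, 357, 259 and 263 CPM in treated spleen. Tumor libraries held 1663, 1461, 1394 and 1133 CPM untreated and 739, 263 and 1142 CPM treated. The difference was -2.35 ± 0.47 (log2, SE; adjusted p = 0.0365), and it remained called without library 28, at -1.95.

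Acod1, whose product makes itaconate in activated macrophages, rose in both organs. It was at 1.53 to 2.73 CPM in untreated spleen, 252 to 544 CPM in treated spleen, 41.8 to 105 CPM in untreated tumor, and 296, 89.7 and 1273 CPM in treated tumor. Library 28 held the lowest of the treated tumor values, inside the untreated range. The rise was 222-fold in spleen and 7.60-fold in tumor, a difference of -4.87 ± 1.02 (log2, SE; adjusted p = 0.0458). Acod1, Cxcl10 and Cd38, which encodes an NAD-consuming ectoenzyme, were the 3 of 17 M1 macrophage genes that edgeR called, all more positive in spleen. Of all tested genes 0.79% were called. The M1 count was 4 without library 28 and 6 without library 30. DESeq2 called 9 of the 17 and limma-voom 3, with 11 at an unadjusted p under 0.05. Tgm2 was the 1 that edgeR called (0.79% of all genes) of 11 M2 macrophage genes. DESeq2 called 3 of the 11 and limma-voom 1, with 3 at an unadjusted p under 0.05. Without library 30 edgeR called 2 of the 12 then tested, Tgm2 toward spleen and Mrc1 toward tumor. Trem1, a receptor that amplifies myeloid inflammation, rose 6.01-fold in spleen with a value of 0.54-fold in tumor (adjusted p = 0.23), and Ly6a, an interferon-induced surface protein, rose 89.0-fold in spleen and 16.01-fold in tumor. The Ly6a difference was -2.45, and -2.22 without library 28, where it was not called.

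Opposite calls were rare: 7 genes rose in spleen and fell in tumor, and 4 fell in spleen and rose in tumor, beside 247 that rose in both organs and 130 that fell in both. The 247 were 32.8% of the 753 genes that rose in spleen (8.63% of those tested) and 50.7% of the 487 that rose in tumor (5.58%). The 130 were 21.8% of the 596 that fell in spleen (6.83%) and 38.9% of the 334 that fell in tumor (3.83%). The 7 were Tiparp, Ifrd1, Jak2, Pfkl, Hbegf, Csrnp1 and Hivep2, and all were called for the interaction. Without library 28 the opposite genes were Tiparp, Ifrd1, Jak2, Hbegf and Txnrd1 in this direction and Txnip alone in the other, and without library 30 there were 14 and 3.

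Tiparp, an ADP-ribosyltransferase induced by the aryl hydrocarbon receptor (chr3:65528410-65555518), was at 19.9 to 26.9 CPM in untreated spleen and 40.5, 35.2, 60.1 and 68.3 CPM in treated spleen. In tumor it was at 424, 250, 356 and 350 CPM untreated and 202, 134 and 154 CPM treated. In each organ the treated range was clear of the untreated one, and the directions were opposite. The changes were 1.06 in spleen (adjusted p = 0.00561) and -1.08 in tumor (adjusted p = 0.0106), a difference of -2.15 ± 0.33 (log2, SE; adjusted p = 0.0116). Jak2, a kinase of the interferon-gamma and cytokine receptors (chr19:29251828-29313080), was at 154 to 180 CPM in untreated and 201 to 261 CPM in treated spleen. Tumor libraries held 261 to 355 CPM untreated and 187, 130 and 203 CPM treated, again without overlap in either organ. Its difference was -1.35 ± 0.23 (log2, SE; adjusted p = 0.0244), and it was the 1 that edgeR called (0.79% of all genes) of 27 genes of nucleic acid sensing and interferon signaling. DESeq2 and limma-voom called 2 each, with 8 at an unadjusted p under 0.05, and without library 30 edgeR called 2 (Jak2 and Socs3).

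Ifrd1, an interferon-related transcriptional regulator, was at 17.3 to 20.6 CPM in untreated spleen and 22.9 to 31.4 CPM in treated spleen. The tumor level was 858 to 930 CPM untreated and 625, 402 and 587 CPM treated, so it fell from a level 49.4-fold above that of spleen. Hbegf, an EGF family growth factor, had at most 3 counts in each untreated spleen library. Its spleen rise was therefore at least 2.05-fold, taken against 3 counts, and its tumor level fell by 1.99 on the log2 scale. Csrnp1 and Hivep2, which encode transcription factors, fell in tumor by 1.36 and 1.39 on the log2 scale. Neither fall was called without library 28, where the tumor changes were -0.94 and -1.32. The interaction of Hivep2 was not called there either (-2.52).

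Pfkl, the liver-type phosphofructokinase of glycolysis, was at 30.5 to 33.9 CPM in untreated and 55.7 to 64.9 CPM in treated spleen. Tumor libraries held 148 to 236 CPM untreated and 153, 92.3 and 82.3 CPM treated, where the groups overlapped. Of 23 glycolysis and hypoxia genes, 22 had an interaction below 0, against 4149 of all 8730 tested genes. Of the 23, edgeR called 2 (Pfkl and Tpi1, a triosephosphate isomerase gene), against 0.79% of all genes. DESeq2 called 7 of the 23 and limma-voom 5, with 13 at an unadjusted p under 0.05. In spleen 4 rose and 2 fell, and in tumor none rose and 7 fell, among them Hif1a (log2 -1.50, adjusted p = 0.0022), Hk2 (-1.10, adjusted p = 0.0014) and the glucose transporter gene Slc2a1 (-1.19, adjusted p = 0.0098). Of all tested genes 8.63% rose and 6.83% fell in spleen, and 5.58% rose and 3.83% fell in tumor. Without library 28, 4 of the 22 then tested fell in tumor and 1 was called for the interaction. The Tpi1 call was lost without library 28 and without library 30, where Pfkl and Hif1a were the 2 called. The Tpi1 difference itself was -1.003 and -1.06 there, against -1.08 over all libraries. The interactions of Hif1a and Hk2 were -1.43 and -0.98 and were not called over all libraries (adjusted p = 0.0546 and 0.0553).

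The 20 genes with the more positive response in tumor mostly fell in spleen: 14 fell there without a call in tumor, 4 fell there and rose in tumor, and 2 rose in tumor without a call in spleen. Their median change was -1.45 in spleen and 0.65 in tumor. None of the 20 was called in every fit that left out 1 library, and none was called without untreated spleen library 18 or treated spleen library 26. Without library 28, 12 genes were called in this direction, 11 of them among the 20. The summed level of 6 red pulp macrophage markers was 546, 1954 and 1318 CPM in treated tumor libraries 16, 28 and 32, 385 to 569 CPM in untreated tumor and 318 to 746 CPM in spleen.

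Mlh3, a mismatch repair gene (chr12:85234520-85270599), fell in spleen from 28.2 to 40.6 CPM in the untreated libraries to 14.5, 7.93, 9.78 and 11.8 CPM. Tumor libraries were at 10.7 to 16.2 CPM untreated and 14.2, 17.3 and 15.8 CPM treated, a range that overlapped that of treated spleen. The difference was 1.91 ± 0.32 (log2, SE; adjusted p = 0.0244) and 1.84 without library 28, still called. Txnip, the thioredoxin-interacting protein that restrains glucose uptake (chr3:96557957-96561883), fell in spleen from 343 to 448 CPM to 206, 204, 210 and 266 CPM. The tumor libraries held 99.2, 159, 108 and 105 CPM untreated and 144, 427 and 298 CPM treated, with the highest value in library 28. The changes were -0.81 (adjusted p = 0.0417) and 1.30 (adjusted p = 0.0093), a difference of 2.11 ± 0.37 (log2, SE; adjusted p = 0.0244) that was 1.72 and still called without library 28.

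Tsc22d3, a glucocorticoid-induced repressor also called GILZ (chrX:140539528-140600659), was at 98.8, 165, 138 and 111 CPM in untreated and 94.0, 73.4, 76.2 and 144 CPM in treated spleen, groups that overlapped. In tumor it was at 38.9 to 53.1 CPM untreated and 112, 118 and 220 CPM treated, without overlap. The tumor rise was 3.10-fold and the difference 2.02 ± 0.38 (log2, SE; adjusted p = 0.0309), or 2.17 without library 28. Abca9, a lipid transporter family gene, fell in spleen from 142 to 178 CPM to 8.02, 10.6, 6.07 and 2.19 CPM. In tumor it was at 105 to 160 CPM untreated and 24.5, 176 and 40.4 CPM treated, where the 176 CPM was library 28. With library 28 the tumor change was -0.71 (adjusted p = 0.412), and without it Abca9 fell in tumor too (log2 -2.02), while the difference stayed called at 3.86 with it and 2.54 without it.

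**Figure D3:**
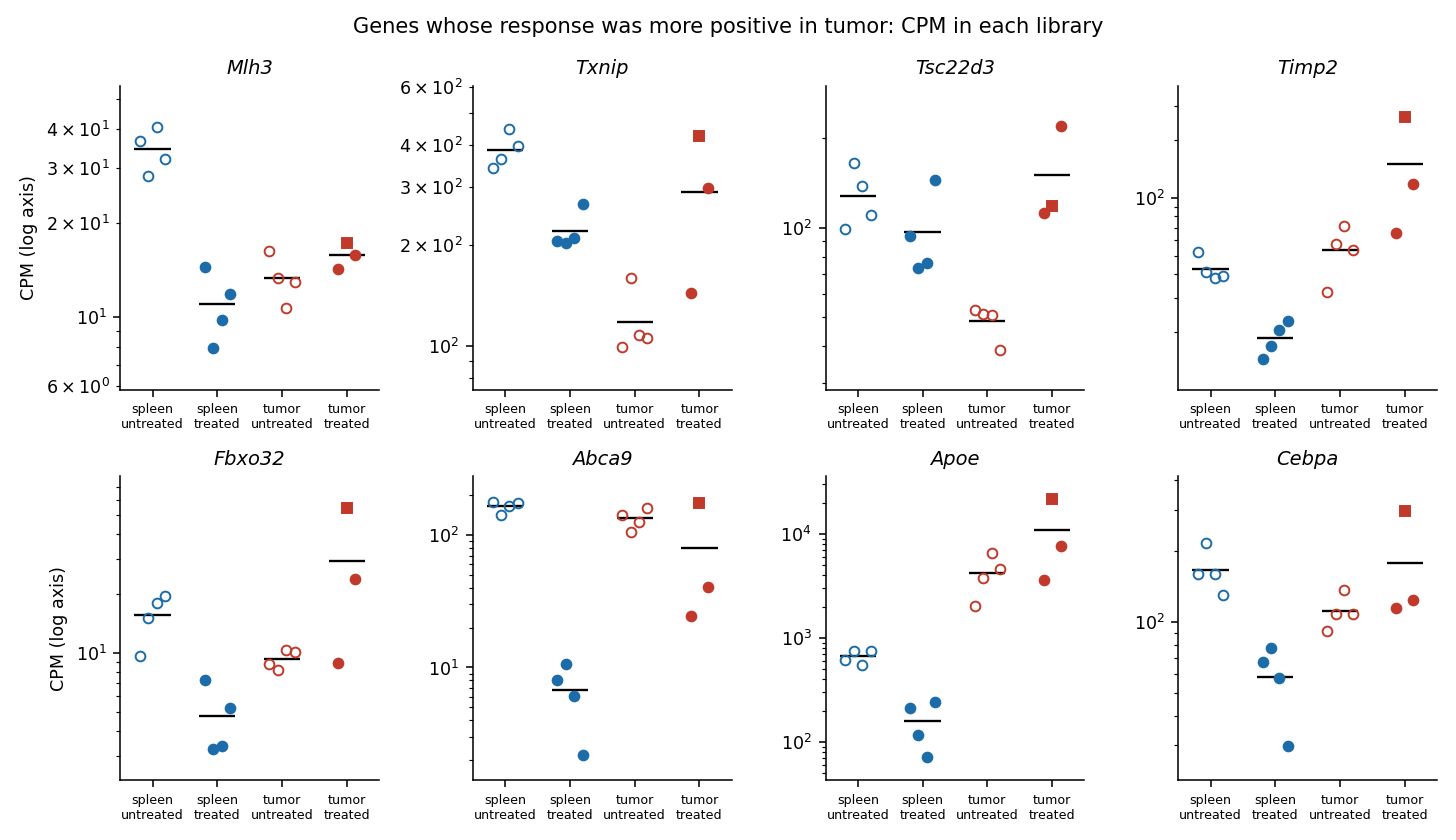
Level in CPM (log axis) of 8 genes with the more positive response in tumor, one point per library, open for untreated and filled for treated, with lines at the group means and squares for treated tumor library 28. Library 28 is the highest treated tumor library for Apoe, Abca9, Timp2, Fbxo32, Cebpa, Txnip and Mlh3, and for Tsc22d3 it is not.

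Apoe, the lipid carrier abundant in macrophages (chr7:19696109-19699188), was at 543 to 748 CPM in untreated and 70.8 to 240 CPM in treated spleen. Among tumor libraries it was at 2014, 3766, 6550 and 4654 CPM untreated and 3619, 21524 and 7675 CPM treated, the 21524 CPM being library 28. Its difference was 3.42 ± 0.73 (log2, SE; adjusted p = 0.0458), and 2.47 without library 28, where it was not called. It was the 1 that edgeR called (0.79% of all genes) of 15 genes of tumor macrophages and lipid handling. DESeq2 called 4 of the 15 and limma-voom 2, with 7 at an unadjusted p under 0.05. None of the 14 tested without library 28 was called by edgeR. Timp2, a metalloproteinase inhibitor, and Fbxo32, a ubiquitin ligase subunit, had differences of 2.66 and 3.39, and of 1.96 and 2.54 without library 28, all called. Their rises in tumor (log2 1.47 and 1.66) were 0.77 and 0.82 without library 28 and not called. Cebpa, a myeloid transcription factor, fell in spleen (log2 -1.51), and its difference of 2.19 ± 0.46 was 1.61 and not called without library 28. Plxdc2 had the largest positive difference of the 69 genes, 4.06 ± 0.87 (log2, SE; adjusted p = 0.0462), falling 17.2-fold in spleen, with a tumor level of 140.9 CPM in library 28 against 26.7 and 23.5 CPM in the other treated libraries. Without library 28 the difference was 2.69, still called, and Plxdc2 fell in tumor too (log2 -1.37), while without library 30 the call was lost, at 3.97.

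Before treatment all 49 genes with the more positive response in spleen were higher in tumor M-MDSC than in spleen M-MDSC, 48 of them past the test. The untreated comparison called 1079 genes higher (12.4%) and 924 lower (10.6%) in tumor. The median gap of the 49 was 3.40 on the log2 scale before and 0.87 after treatment, and 3.26 before and 0.87 after over the 47 genes with no group at 3 counts or under. After treatment 24 of the 49 were called higher and 2 lower in tumor, beside 929 genes higher (10.6%) and 419 lower (4.8%) over all tested. For the 20 genes of the other direction the median gap went from -0.54 to 1.16, and 14 were called higher in tumor after treatment. The change in the gap is the interaction that chose these genes, so these values describe them and test nothing.

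**Figure D4:**
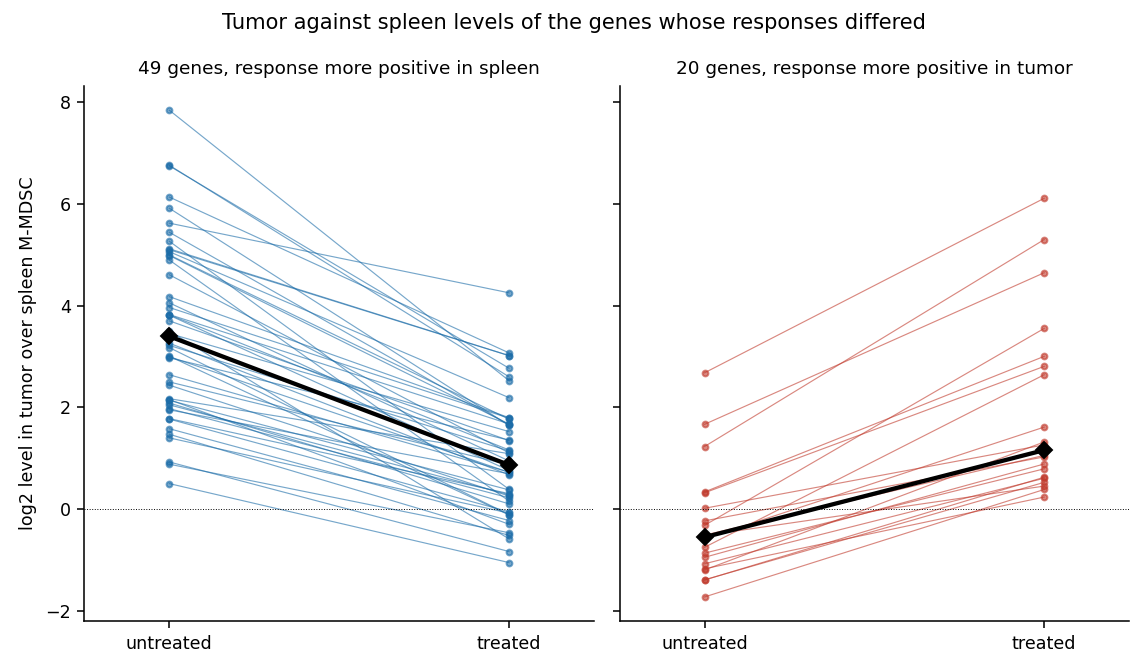
Log2 level in tumor over spleen M-MDSC (y axis) in untreated and treated libraries for the 49 and the 20 genes, one line per gene, with black diamonds at the medians. The median falls from 3.40 to 0.87 on the left and goes from -0.54 to 1.16 on the right.

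In the list of antiviral effectors most genes rose in both organs. Of the 39 tested, 35 rose in spleen, and 25 rose and 1 fell (Ifitm1) in tumor, with medians of 1.81 and 1.47. These shares, and those of the next lists, stand against 8.63% of all tested genes rising in spleen and 5.58% in tumor. The interaction was above 0 for 3 of the 39, with a median of -0.58, and edgeR called none, against 13 at an unadjusted p under 0.05, 4 called by DESeq2 and 1 by limma-voom. Without library 28, which held 39.9 CPM of Isg15 against 150 and 175 CPM in the other treated tumor libraries, 30 rose and none fell in tumor, and the interaction was above 0 for 9 of the 39, with a median of -0.32. Without library 30, 1 of the 39, Ifi44, was called for the interaction. Ifit3 rose by 3.61 in spleen and 3.60 in tumor (log2). Isg15, the ubiquitin-like modifier, rose by 4.01 and 2.03, with an interaction of -1.98 (approximate 95% interval -3.32 to -0.63, adjusted p = 0.15). Ifi44 rose by 6.10 and 4.09, with an interaction of -2.01 (-3.15 to -0.86, adjusted p = 0.0908). Ifih1 itself rose by 1.86 and 0.99. Of 16 interferon-inducible GTPases 13 rose in spleen and 6 in tumor, and of 6 immunoproteasome genes 5 and none, with no edgeR call for a difference in either list. At an unadjusted p under 0.05 there were 4 and 1 (1238 of all 8730 genes), and DESeq2 called 2 and 0 (307 of all 8730).

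Of 18 tested genes of antigen presentation by MHC class I, 15 rose in spleen and 10 in tumor (8.63% and 5.58% of all tested genes), and 3 had a tumor change below 0. Of the 18, edgeR called 1 (0.79% of all genes), H2-Q7 (-1.48 ± 0.33, adjusted p = 0.0489). It is a nonclassical class I gene whose reads may be shared with its near-identical neighbors. Its call was lost without library 28 (-1.30) and without library 30 (-1.41). H2-Q5, which the list leaves out, was also among the 69 genes, at -1.82. The H2-Q5 call was lost without library 28 (-1.66) and kept without library 30 (-1.98). H2-K1 was at 593 to 718 and 1588 to 2224 CPM in untreated and treated spleen, and at 590 to 932 and 1900 to 2660 CPM in tumor. Its difference was -0.01 (95% interval -0.58 to 0.55), that of H2-D1 0.11 (-0.34 to 0.57) and that of B2m 0.46 (-0.11 to 1.03). The 7 MHC class II genes all fell in spleen, with a median of -2.62, and 2 fell in tumor, with a median of -1.22, where 6.83% and 3.83% of all tested genes fell. Without library 28, 6 fell in tumor and the tumor median was -2.55. H2-Aa was at 134 and 85.8 CPM in the other treated tumor libraries and at 654 CPM in library 28, inside the untreated tumor range of 497 to 765 CPM. None of the 7 was called for the interaction by edgeR with or without that library, with 2 at an unadjusted p under 0.05 and 0 called by DESeq2 or limma-voom.

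**Figure D5:**
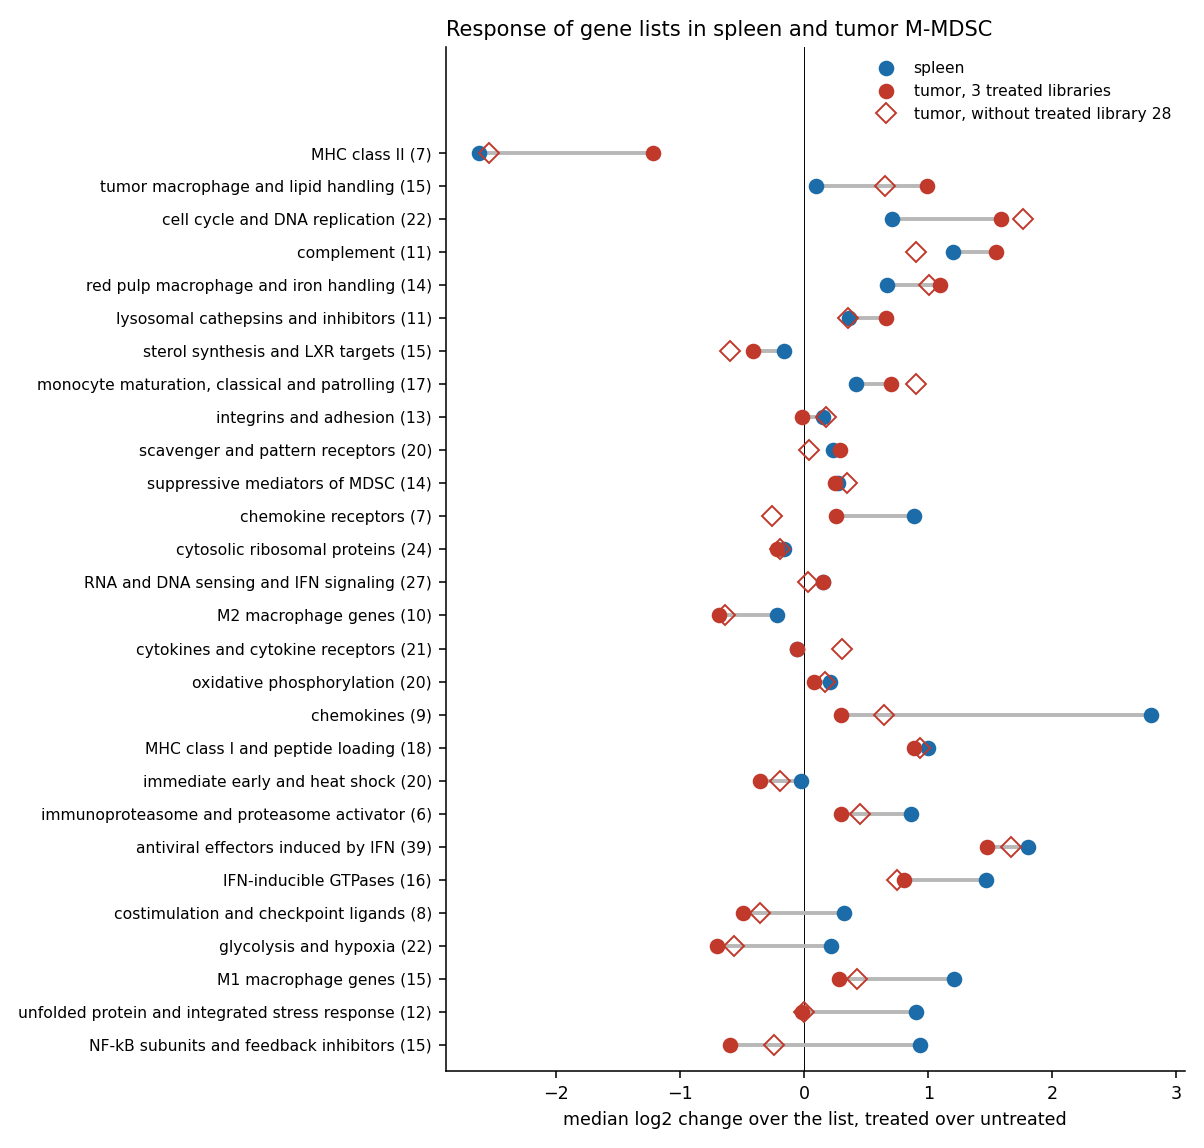
Median log2 change with treatment over each gene list in spleen (blue) and tumor (red) M-MDSC, with open diamonds for tumor without treated library 28 and the number of genes behind each median in brackets, genes with a group at 3 counts or under left out. The NF-kB list lies at 0.93 in spleen and -0.60 in tumor, and the MHC class II list at -2.62 in spleen and at -1.22 or, without library 28, -2.55 in tumor.

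The remaining lists held few or no calls. All 12 tested genes of the unfolded protein and integrated stress response had an interaction below 0, with 7 rising in spleen and 1 in tumor (Ddit3). Without library 30, which carried the plasma cell markers, 2 rose in spleen. Of 22 cell cycle genes 21 had an interaction above 0, and 9 rose in tumor and 2 in spleen, with medians of 1.58 and 0.71, where 5.58% and 8.63% of all tested genes rose. Without library 28, 6 rose in tumor, and without library 30, 1 of the 21 then tested rose in spleen, where the median was 0.42. None of these 12 or 22 genes was called by edgeR or DESeq2. An unadjusted p under 0.05 was found for 7 and 2 of them, and for 1238 of all 8730 tested genes. The suppressive mediators of MDSC (15 genes), cytokines and their receptors (23 genes) and costimulation and checkpoint ligands (9 genes) held no edgeR call over all libraries. In these 3 lists 4, 11 and 5 had an unadjusted p under 0.05 and DESeq2 called 1, 5 and 3. DESeq2 called 307 of all 8730 tested genes. Without library 30 edgeR called 1, 2 and 1 in these lists (Ptgs2, Il1rn and Il1b, Cd40), and without library 28 it called 0, 1 (Il6) and 0. Cd86, a costimulatory ligand, had a difference of -0.41 (95% interval -1.47 to 0.66), and Cd274, which encodes PD-L1, one of -0.68 (-1.39 to 0.02, adjusted p = 0.351). Cd274 rose in both organs (log2 1.75 and 1.07). Cdh1, which is also on the tumor epithelium list, fell in tumor from 56.2 to 104 CPM to 17.4, 11.5 and 8.85 CPM and was called (-3.78 ± 0.82, adjusted p = 0.0458) over all libraries, but not without library 28 (-3.71) or without library 30 (-2.69).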

How the data were processed

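Gene expression was measured by RNA-seq in sorted M-MDSC. Libraries were made with a strand-specific total RNA kit of 13 PCR cycles without molecular identifiers. The authors aligned reads to mm10 (GRCm38) with ContextMap and BWA and counted them per Gencode gene with featureCounts (Subread 1.4.6-p3), strand-specifically, and deposited raw counts for 53379 genes. Columns were assigned to groups by name.

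Genes averaging at least 25 counts (8730) were fitted in 1 model of the 4 groups with edgeR 4.0.16 in R 4.3.3 (TMM scaling, robust quasi-likelihood F-test, two-sided) and Benjamini-Hochberg adjustment over all of them. Alternatives used DESeq2 1.42.0, limma 3.58.1 voom, other scalings and filters, and each library left out. The scripts were tested on simulated data. Symbols and coordinates came from GENCODE on GRCm38 (8727 of 8730). Named genes were those with the smallest p and the largest difference in each direction, those with opposite calls, up to 4 genes per list and the genes the study names, and the text gives those that each result turns on; Trem1, Ly6a, Cdh1, Cebpa, Txnrd1, Slc2a1, Ifit3, Ddit3, Nfkb1, Rel, Traf1, Tnip1, Tnfaip2 and Il1b were added after their values were seen. Some items are not reported here. The question, genes and lists were chosen with earlier results of these data known.

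Sample titles carry 8 numbers shared by both organs, but the columns do not, so libraries were treated as independent. Library totals of 793070 to 4357105 set the precision at low counts. The deposited table holds counts and no fold changes or p-values.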

Additional observations from a re-analysis of the deposited data

Results flagged for a closer look

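The treatment response differed between tumor and spleen M-MDSC for 69 genes by the interaction test, and the values here are the tumor response minus the spleen response on the log2 scale. The widest differences toward spleen were Ccl4 -5.30, Acod1 -4.87, Gm4951 -4.73, Hbegf -4.26, Maff -4.15, Cxcl10 -4.08, Ccrl2 -3.97 and Cdh1 -3.78. They were followed by Trem1 -3.49, Sdc4 -3.30, Ccnd2 -3.27, Tgm2 -3.22, Ehd1 -3.11, Rab20 -3.10, Ccl3 -3.06, Nt5dc2 -3.05, Csrnp1 -2.86, Trib1 -2.65, Hivep2 -2.58, Ralgds -2.51 and Ly6a -2.45. Differences of intermediate size were Gadd45b -2.37, Nfkbia -2.35, Bhlhe40 -2.27, Scimp -2.17, Slc39a14 -2.17, Tiparp -2.15, Gm44292 -2.09, Ets2 -2.08, Cd38 -2.07, Malt1 -1.98 and Dusp16 -1.98. Smaller ones were Mxd1 -1.92, Smox -1.91, H2-Q5 -1.82, Clic4 -1.80, Txnrd1 -1.76, Plek -1.76, B430306N03Rik -1.76, Cd69 -1.75, Pfkl -1.63 and Pde4b -1.62. The smallest toward spleen were Gm43984 -1.55, H2-Q7 -1.48, Mapk6 -1.47, Ifrd1 -1.37, Jak2 -1.35, Snx18 -1.25 and Tpi1 -1.08. Toward tumor the values included Plxdc2 4.06, Abca9 3.86, Apoe 3.42, Fbxo32 3.39, Timp2 2.66 and Socs6 2.51. Smaller ones toward tumor were Nacc2 2.48, Cebpa 2.19, Txnip 2.11, Tsc22d3 2.02, Mlh3 1.91, Gtpbp8 1.83, Klhl24 1.68, Rnd3 1.65, Fam102b 1.56, Sgpp1 1.41, Daglb 1.26, Commd10 1.24 and Retreg2 0.97. Gm4951 and Hbegf had at most 3 counts in each untreated spleen library, so their fitted values depend on the prior count. Without treated tumor library 28 the calls lost were those of Apoe, Ccl3, Cd69, Cdh1, Cebpa, Clic4, Commd10, Daglb, Fam102b, Gadd45b, Gm43984, Gm44292, H2-Q5, H2-Q7, Hivep2, Klhl24, Ly6a, Malt1, Nacc2, Pde4b, Plek, Retreg2, Scimp, Slc39a14, Smox and Tpi1, and Gtpbp8 was not tested. Without treated spleen library 30 they included those of Cdh1, Commd10, Daglb, Gm43984, Gm44292, Gtpbp8, H2-Q7, Plxdc2, Retreg2, Rnd3, Slc39a14, Socs6 and Tpi1.

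Of 126 groups of 4 libraries examined, 11 held a library far from the others, where chance alone gives about 1 in 20. For genes, Txnip was at 266 CPM in treated spleen library 30 (204 to 210 CPM in the others) and at 159 CPM in untreated tumor library 8 (99.2 to 108 CPM). Tsc22d3 was at 38.9 CPM in untreated tumor library 24 (50.7 to 53.1 CPM), and Gtpbp8 at 17.3 CPM in untreated spleen library 22 (11.4 to 12.2 CPM). For summed cell type markers, treated spleen library 30 held 132 CPM of B cell, 8104 CPM of plasma cell, 40.7 CPM of T cell and 46.4 CPM of NK cell markers. Untreated tumor library 24 held 13.0 CPM of NK cell markers and untreated tumor library 8 held 20.8 CPM of erythroid markers. Untreated spleen library 18 held 0.390 CPM of acinar markers, with 0 in the other libraries of its group.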

How the results depend on the processing

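No paired analysis was possible from the column names, because they carry no mouse number that ties a spleen library to a tumor library. Taken in order, the columns run through the same groups as the sample titles. A pairing of spleen and tumor libraries by that order was not tested. The 69 genes with a different response became 307 with DESeq2 (all 69 among them), 116 with limma-voom (54 among them), 659 without a filter on low counts and 1 at adjusted p under 0.001 with at least 2-fold. For genes more positive in tumor, the same settings gave 108, 36, 310 and 0 against 20, and for genes more positive in spleen 199, 80, 349 and 1 against 49. Leaving out 1 library gave 7 to 250, 0 to 115 and 7 to 135 genes, in that order. Other scalings (64 to 75), a minimum of 10 counts in every library (57) and no robust estimates (70) stayed within 1.5 times. For treatment in spleen (1349 genes), limma-voom gave 2166 and the strict threshold 201, with 945 to 1590 over single libraries left out. For treatment in tumor (821) the values were 1232 with DESeq2, 1544 unfiltered, 45 strict and 409 to 1137. For tumor against spleen untreated (2003) they were 3006 with limma-voom, 496 strict and 1419 to 2220, and treated (1348) 2557 unfiltered, 263 strict and 748 (without library 28) to 1679. The unfiltered and strict counts differ by construction, and the cause of the others was not tested. Upper-quartile scaling moved the median of all genes to -0.12 (log2) in the untreated comparison. No called gene changed direction under any of these, and 7 of the 69 were called at adjusted p under 0.05 in every one that tested them. Of these 7, the minimum of 10 counts in every library left Rab20, Ccnd2, Ccrl2 and Ralgds untested. With 3 treated tumor libraries, precision is lowest in that group.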
